A study of Mus musculus with 6 samples.

Results

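The genes described here encode 10 proteins that detect DNA or RNA in the cytosol or pass the signal on: Cgas, Tmem173, Trex1, Zbp1, Ddx58, Ifih1, Dhx58, Mavs, Tbk1 and Irf3. They were chosen by name for this role, with earlier results of these data known. All 10 were found among the 54446 genes of the deposited table. The cells were TRAMP-C2, an established line from a prostate tumor of a male C57BL/6 TRAMP mouse, in which a probasin promoter drives SV40 T antigen. They were left without drug (Ctrl) or kept for 24 h in 2 µM oxaliplatin (Oxali) or 2 µM cisplatin (Cispl), platinum drugs that bind DNA, and poly(A) RNA of 2 libraries per group was sequenced. The labels do not say that the 2 libraries of a group came from separate cultures, so the p values measure only the spread between these samples, which may be technical.

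As background, cGAS binds DNA in the cytosol and makes the cyclic dinucleotide cGAMP, which activates STING, the product of Tmem173. RIG-I (Ddx58) and MDA5 (Ifih1) bind viral or misplaced RNA and signal through MAVS on mitochondria. Both routes meet at the kinase TBK1, which phosphorylates the transcription factor IRF3, and IRF3 then switches on type I interferon and chemokine genes. Many sensor genes are themselves interferon-inducible.

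The promoters of Ddx58 and Irf3 are shown because these members passed the test in a drug comparison and had a RefSeq promoter window (GRCm38.p6). They run from 250 bases before to 30 after the annotated start, 5′ to 3′ on the gene's strand, and capitals mark a match to the core of the interferon-stimulated response element, searched on both strands as gaaa, any 2 bases, gaaa.
Ddx58 (chr4:40239796-40240075, minus strand): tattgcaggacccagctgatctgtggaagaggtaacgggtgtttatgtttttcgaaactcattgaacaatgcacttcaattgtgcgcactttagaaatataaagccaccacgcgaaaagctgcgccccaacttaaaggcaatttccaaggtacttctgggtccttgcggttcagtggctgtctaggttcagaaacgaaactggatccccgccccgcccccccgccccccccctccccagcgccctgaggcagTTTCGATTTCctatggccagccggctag
Irf3 (chr7:44997398-44997677, plus strand): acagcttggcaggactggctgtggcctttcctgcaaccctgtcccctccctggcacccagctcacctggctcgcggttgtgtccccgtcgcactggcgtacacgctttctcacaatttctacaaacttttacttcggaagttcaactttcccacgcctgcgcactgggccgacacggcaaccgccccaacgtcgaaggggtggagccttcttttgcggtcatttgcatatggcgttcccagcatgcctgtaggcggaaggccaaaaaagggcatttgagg
The Ddx58 match, TTTCGATTTC, lay at positions 3 to 12 counted from the annotated start as 1, on the opposite strand. The Irf3 window held no match. Windows reaching 50 bases after the start existed for 7 of the 10 members, and 2 of these, Ddx58 and Ifih1, held the element (GAAACAGAAA at positions 33 to 42 in Ifih1). So did 10 of the 14 interferon genes and early interferon targets listed below that had a window. Those are counts of genes, whereas over all genes windows were counted, and 3.44% of 32851 held the element. A STAT site (ttc, any 3 bases, gaa) was present in 8.30% of all windows and a kappa B site (ggg, any 2 bases, tttcc) in 1.63%, and no member window held either. These matches describe letters only.

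Each library held 21345312 to 24041767 counts, so that 3 counts corresponded to 0.125 to 0.141 CPM, counts scaled to the size of the library. Values are normalised counts, that is, expected counts per gene divided by a size factor for the library. Krt8, Krt18 and Cdh1, keratin and cadherin genes of epithelium, had 95.2 to 573 normalised counts, whereas the basal keratin Krt5 was at 0 and Epcam at no more than 1.97 in every library. The leukocyte genes Ptprc, Cd3e and Itgam stayed at or below 2.05, Cd68 and Csf1r ranged from 8.19 to 49.996, and the endothelial genes Pecam1, Cdh5 and Kdr from 0 to 62.7. The fibroblast-associated genes Pdgfra (1058 to 1538) and Dcn (3299 to 4079) were above 1000 normalised counts in all libraries, whereas Lum, also listed as one, had 19.4 to 57.1.

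After Oxali, 1 of the 10 genes passed the test (DESeq2 adjusted p under 0.05), the STING gene Tmem173, which fell. Of all 14956 genes tested, 20.2% passed, 10.7% higher and 9.50% lower. None of the 10 rose by this test, whereas 2 were higher at an unadjusted p under 0.05 and edgeR called 1 of them, Cgas, higher. At that unadjusted threshold 1 was lower after Oxali, and 5 were higher and 1 lower after Cispl. Zbp1, among the 5, passed the filter on low counts only through the drug-treated libraries, so its place there is no support for a rise. The share of all genes at that threshold was not counted, so these counts have no background beside them. They therefore show nothing particular to the members. After Cispl 3 passed, against 28.1% of all genes, of which 15.7% were higher and 12.4% lower: Tmem173 and the RIG-I gene Ddx58 rose and Irf3 fell. The drugs themselves differed in 1 member, Tmem173, against 19.9% of all genes, of which 8.62% were higher and 11.3% lower after Oxali. With 1 library left out in turn, the members called numbered 0 to 2 after Oxali (2 without Ctrl replicate 2, otherwise 0), 0 to 2 after Cispl (1 without either Ctrl replicate, 0 without Cispl replicate 1, otherwise 2) and 1 between the drugs. Over all genes tested, calls also fell in number with each library left out. Both drug comparisons share the same Ctrl libraries. The 2 libraries of Oxali lay fully above both Ctrl libraries for 4 members (background 32.1%) and fully below for 2 (background 32.7%), together 6 (background 64.8%). Those of Cispl lay above for 6 (background 34.6%) and below for 2 (background 34.8%), together 8 (background 69.4%). Oxali lay above Cispl for 2 (background 33.5%) and below for 5 (background 34.5%), together 7 (background 68.0%). The median log2 fold change of the 10 genes was 0.06 after Oxali and 0.29 after Cispl, beside -0.00285 and -0.000832 over all genes tested. All 10 passed the filter on low counts, Zbp1 only because of the drug-treated libraries, and Zbp1 is among the 4 and the 6 members above Ctrl. In such bulk RNA, a change in the share of cells that express a gene and a change per cell cannot be told apart.

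**Figure D1:**
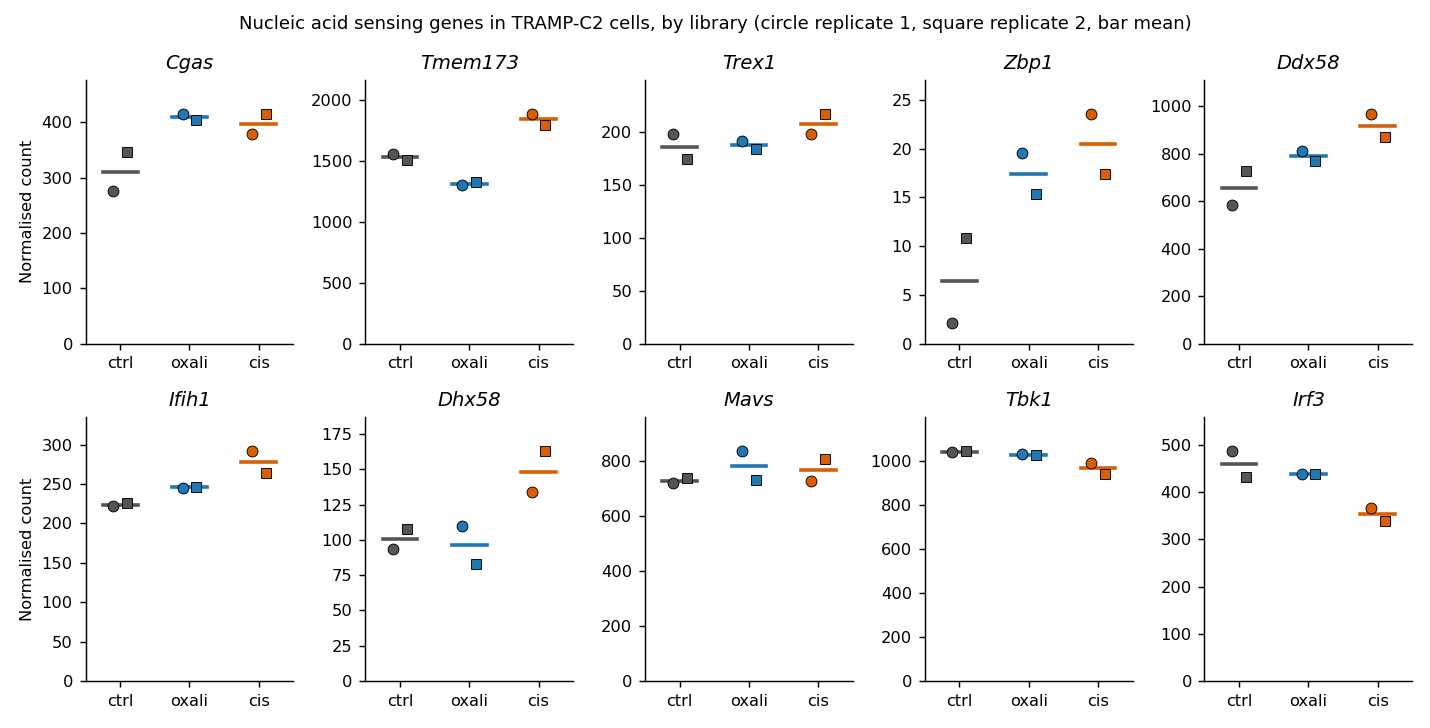
Normalised counts (vertical axes, starting at 0) of the 10 sensing genes in the 6 TRAMP-C2 libraries, with circles for replicate 1, squares for replicate 2 and bars for the mean of each group (ctrl, oxali, cis). Tmem173 lies lowest after oxaliplatin (1299 and 1324) and highest after cisplatin (1882 and 1795), Irf3 is lowest after cisplatin, and Ddx58 is higher in both drug groups than in control.

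Among the DNA sensing genes, Tmem173 (ENSMUSG00000024349, chr18:35733679-35740554, minus strand, build GRCm38) moved in opposite directions after the drugs. It had 1558 and 1506 normalised counts in the Ctrl libraries, 1299 and 1324 after Oxali and 1882 and 1795 after Cispl. No library of one group reached the range of another. After Oxali the level fell by 14.4%, a log2 fold change (log2FC) of -0.22 ± 0.075 (SE, n = 2 per group, DESeq2 adjusted p = 0.0141). After Cispl it rose by 20.03%, a log2FC of 0.26 ± 0.073 (DESeq2 adjusted p = 0.00189). The fall after Oxali was no longer called when any of the 6 libraries was left out, with DESeq2 adjusted p values of 0.200 without Ctrl replicate 1, 0.0940 without Ctrl replicate 2, 0.242 and 0.169 without Oxali replicates 1 and 2, and 0.0732 and 0.0722 without Cispl replicates 1 and 2, while the log2FC stayed between -0.25 and -0.20. The rise after Cispl lost its call without Ctrl replicate 2 (DESeq2 adjusted p = 0.0870) or Cispl replicate 1 (DESeq2 adjusted p = 0.140).

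Cgas (ENSMUSG00000032344, chr9:78430526-78443237, minus strand), which encodes the cytosolic DNA sensor, had 276 and 346 normalised counts in Ctrl, 415 and 404 after Oxali and 378 and 414 after Cispl. All 4 drug-treated libraries were above both Ctrl libraries, which differed from each other by more than the libraries of either drug group. The log2FC was 0.40 ± 0.16 after Oxali (SE, DESeq2 adjusted p = 0.0532) and 0.35 ± 0.16 after Cispl (DESeq2 adjusted p = 0.0844), so neither passed the test. The Oxali difference was past the threshold with edgeR (adjusted p = 0.0147), as was the Cispl difference (adjusted p = 0.0231). Without Ctrl replicate 1 the log2FC was 0.25 after Oxali and 0.20 after Cispl, and without Ctrl replicate 2 it was 0.57 and 0.52. Ctrl replicate 1 was the lower Ctrl library for 7 of the 10 sensing genes and for 9 of 10 tested interferon targets, compared with 50.3% of all genes, and its part in these values was not tested. The replicates of the drug groups also differed. Oxali replicate 1 was the lower for 3 of the 10 sensing genes and 2 of the 10 targets (49.7% of all genes). Cispl replicate 1 was the lower for 4 and 0 (52.6%).

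Zbp1 (ENSMUSG00000027514, chr2:173206612-173218923, minus strand), a sensor of Z-form nucleic acids that is interferon-inducible and engages the kinase RIPK3, had few reads. Its expected counts were 2 and 11 in Ctrl, 21 and 15 after Oxali and 24 and 17 after Cispl. Every drug-treated library was above both Ctrl libraries, but with log2FCs of 1.42 ± 0.84 and 1.65 ± 0.84 (SE) DESeq2 gave no adjusted p at this depth. Zbp1 passed the filter on low counts only through the drug-treated libraries, so this separation is no support for a rise. Without Ctrl replicate 1 the log2FCs were 0.69 and 0.92, and without Ctrl replicate 2 they were 3.07 and 3.30.

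Trex1 (ENSMUSG00000049734, chr9:109057933-109059734, minus strand) encodes the exonuclease that degrades cytosolic DNA and so limits cGAS. It had 198 and 174 normalised counts in Ctrl, 191 and 184 after Oxali and 198 and 217 after Cispl. The range of Ctrl overlapped that of each drug group. The log2FCs of 0.012 ± 0.20 (95% interval -0.38 to 0.40, DESeq2 adjusted p = 0.978) and 0.16 ± 0.20 (95% interval -0.23 to 0.54, DESeq2 adjusted p = 0.608) did not pass the test. The exons of Trex1 lie wholly within exons of Atrip on the same strand, so its counts are uncertain.

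Among the RNA sensing genes, Ddx58 (ENSMUSG00000040296, chr4:40203773-40239828, minus strand) rose after Cispl. It had 582 and 725 normalised counts in Ctrl, 811 and 768 after Oxali and 967 and 869.7 after Cispl. Both drug groups lay above both Ctrl libraries, and both Cispl libraries lay above both Oxali libraries. After Cispl the level rose by 40.4%, a log2FC of 0.49 ± 0.13 (SE, DESeq2 adjusted p = 8.33e-04). This call was lost without Ctrl replicate 1 (log2FC 0.34, DESeq2 adjusted p = 0.0773) and without Cispl replicate 1 (DESeq2 adjusted p = 0.0825). After Oxali the log2FC of 0.27 ± 0.13 did not pass (DESeq2 adjusted p = 0.109), and it was 0.13 without Ctrl replicate 1 and 0.44 without Ctrl replicate 2.

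Ifih1 (ENSMUSG00000026896, chr2:62595798-62646255, minus strand), the MDA5 gene, had 222 and 226 normalised counts in Ctrl, 245 and 247 after Oxali and 291 and 264 after Cispl. The groups did not overlap and stood in the same order as for Ddx58, with log2FCs of 0.14 ± 0.17 after Oxali (SE, DESeq2 adjusted p = 0.646) and 0.31 ± 0.17 after Cispl (DESeq2 adjusted p = 0.166), neither of which passed. Dhx58 (ENSMUSG00000017830, chr11:100694884-100704271, minus strand) encodes LGP2, a relative of RIG-I without its signalling domains that modulates the other sensors. Its normalised counts were 93.4 and 107 in Ctrl, 109.5 and 82.9 after Oxali and 134 and 163 after Cispl. The Ctrl libraries fell inside the range of the Oxali libraries and below both Cispl libraries, and the log2FCs were -0.059 ± 0.28 (SE, DESeq2 adjusted p = 0.920) and 0.56 ± 0.27 (DESeq2 adjusted p = 0.105). edgeR called both genes higher after Cispl, with adjusted p values of 0.0179 for Ifih1 and 0.0238 for Dhx58. Dhx58 shares 141 exon bases with Dhx58os on the other strand, whose reads could be counted with it if strand was not used.

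Mavs (ENSMUSG00000037523, chr2:131234063-131248025, plus strand), the mitochondrial adaptor of RIG-I and MDA5, had 720.2 and 739 normalised counts in Ctrl, 836 and 733 after Oxali and 727 and 809 after Cispl. The ranges of Ctrl and both drug groups overlapped. The 95% interval of its log2FC ran from -0.12 to 0.33 after Oxali and from -0.15 to 0.30 after Cispl, and neither passed the test (DESeq2 adjusted p = 0.573 and 0.683).

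Of the shared relay genes, Irf3 (ENSMUSG00000003184, chr7:44997648-45002848, plus strand) fell after Cispl. It had 487 and 432 normalised counts in Ctrl, 438 and 439 after Oxali and 368 and 339.7 after Cispl. The Oxali libraries lay between the Ctrl libraries, whereas both Cispl libraries were below all others. The fall after Cispl was 22.9%, a log2FC of -0.38 ± 0.14 (SE, DESeq2 adjusted p = 0.0277), and after Oxali the log2FC was -0.065 ± 0.14 (DESeq2 adjusted p = 0.799). The fall after Cispl was not called in the fit to the 4 Ctrl and Cispl libraries alone (DESeq2 adjusted p = 0.0551). It was also lost with each library left out, at DESeq2 adjusted p values of 0.319 and 0.0767 without Ctrl replicates 1 and 2, 0.0971 and 0.0976 without Oxali replicates 1 and 2, and 0.139 and 0.308 without Cispl replicates 1 and 2. Irf3 overlaps Bcl2l12 on the other strand over 88 exon bases.

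Tbk1 (ENSMUSG00000020115, chr10:121546455-121586787, minus strand), the kinase that both arms share, had the narrowest range of the 10 genes relative to its level, with 1043 and 1043 normalised counts in Ctrl, 1030.5 and 1027 after Oxali and 993 and 942 after Cispl. Each drug group lay below Ctrl, but by little. The log2FC was -0.020 ± 0.087 after Oxali (SE, 95% interval -0.19 to 0.15, DESeq2 adjusted p = 0.915) and -0.11 ± 0.088 after Cispl (95% interval -0.28 to 0.064, DESeq2 adjusted p = 0.383).

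**Figure D2:**
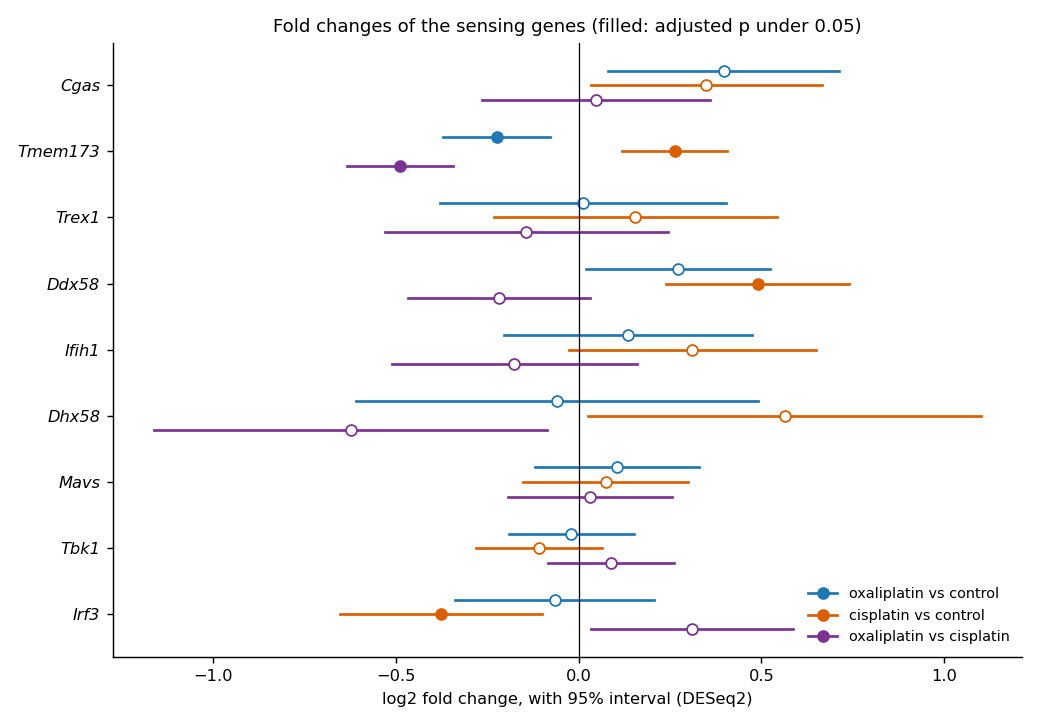
Log2 fold changes (horizontal axis) of 9 sensing genes in the 3 comparisons, as points with 95% intervals from DESeq2, filled where the adjusted p was under 0.05. Zbp1 is left out because DESeq2 gave it no adjusted p. Tmem173 is called in all 3 comparisons, on opposite sides of 0 for the drugs (-0.22 and 0.26), while Ddx58 and Irf3 are called for cisplatin.

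Both drugs were given at 2 µM for 24 h, so their readouts can be compared at an equal molar dose and time. Whether these doses were equal in effect on the cells was not tested. Cisplatin holds its platinum with ammine and chloride ligands, whereas oxaliplatin carries a diaminocyclohexane in place of the ammines and an oxalate in place of the chlorides. With this 1 pair of drugs compared, Tmem173 was lower after Oxali than after Cispl by a log2 difference of -0.49 ± 0.074 (SE, 95% interval -0.63 to -0.34, DESeq2 adjusted p = 1.50e-09). This call held in all 14 alternatives, with adjusted p values up to 0.00109. No member was called higher after Oxali than after Cispl. Irf3 was higher at an unadjusted p under 0.05, a threshold without the share of all genes beside it, and was called by edgeR (adjusted p = 0.0129). DESeq2 gave Irf3 a log2 difference of 0.31 ± 0.14 (SE, 95% interval 0.034 to 0.59, DESeq2 adjusted p = 0.0928). Dhx58 was lower after Oxali by a log2 difference of -0.62 ± 0.27 (SE, 95% interval -1.16 to -0.085) without passing (DESeq2 adjusted p = 0.0811), and edgeR gave an adjusted p of 0.0200.

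No difference between the drugs was called for the other members. The intervals of the log2 difference, Oxali minus Cispl, were -0.26 to 0.36 for Cgas, -0.47 to 0.030 for Ddx58, -0.51 to 0.16 for Ifih1 and -0.19 to 0.26 for Mavs. For Tbk1 the interval was -0.084 to 0.26 and for Trex1 -0.53 to 0.24. Zbp1 had the widest, -1.75 to 1.28. Differences of the sizes these intervals contain could not be told from 0 with 2 libraries per group.

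The members differed widely in level. In Ctrl, Tmem173 was highest at 559 ± 13.2 normalised counts per kilobase of exon (SD, n = 2), followed by Tbk1 at 267 ± 0.0859, Mavs at 218 ± 3.97, Trex1 at 162 ± 14.7 and Irf3 at 133 ± 11.3. The nucleic acid sensors themselves were lower, with Ddx58 at 92.7 ± 14.3, Cgas at 75.4 ± 11.96, Dhx58 at 30.7 ± 3.03, Ifih1 at 27.4 ± 0.308 and Zbp1 at 1.83 ± 1.76. In this order the 2 Ctrl libraries of Ddx58 (82.6 and 103 per kilobase) and Cgas (66.9 and 83.8) overlapped, and those of the other neighbours did not. Trex1 and Irf3 changed places when the length of the longest transcript replaced that of all exons. By that length the Ctrl libraries of Ddx58 (150 and 187) overlapped those of Trex1 (183 and 161) and no longer those of Cgas. Those of Dhx58 (38.7 and 44.5) overlapped Ifih1 (40.6 and 41.2), and those of Irf3 (240 and 212) overlapped Mavs (236 and 242). The order of these neighbours thus depends on the length used.

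**Figure D3:**
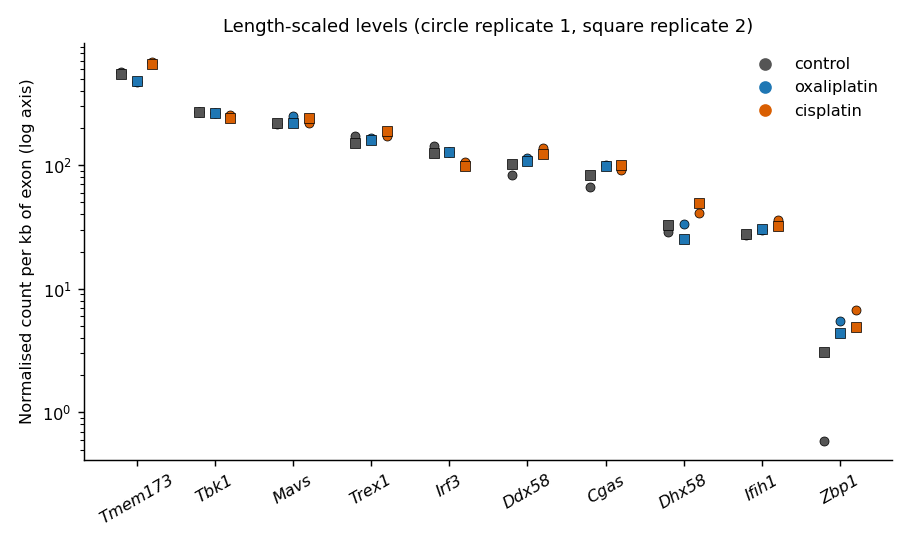
Normalised counts per kilobase of exon (vertical log axis) of the 10 sensing genes in the 6 libraries, ordered by the control mean, with circles for replicate 1 and squares for replicate 2. Tmem173 is highest in every library, and Zbp1 lowest, with 0.588 and 3.07 in control.

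Other genes of the pathway were counted from 4 lists written with earlier results of these data known, and read from the same DESeq2 fit. Together 23 of 80 tested genes were called after Oxali, 12 higher and 11 lower, and 34 after Cispl, 26 higher and 8 lower, against 20.2% and 28.1% of all genes. Between the drugs 23 were called, 5 higher and 18 lower after Oxali, against 19.9%. With 1 library left out in turn, 10 to 18 were called after Oxali, fewest without Oxali replicate 1, 15 to 20 after Cispl, fewest without Cispl replicate 2, and 4 to 18 between the drugs, with 4 to 7 when the library left out was 1 of the drug libraries. Calls over all genes tested also fell in number with each library left out. Of the 89 genes listed, 9 were too low to test.

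Among 26 other nucleic acid sensors tested, 2 rose and 1 fell after Oxali and 8 rose and 1 fell after Cispl, with median log2FCs of 0.06 and 0.20. Of all genes tested, 10.7% rose and 9.50% fell after Oxali, and 15.7% rose and 12.4% fell after Cispl. The DNA-binding Ifi204 fell after Oxali, from 1477 and 1429.6 to 1017 and 1147 normalised counts (log2FC -0.43 ± 0.096, SE, DESeq2 adjusted p = 9.48e-05). The helicase genes Dhx33 (0.26 ± 0.080, DESeq2 adjusted p = 0.00697) and Dhx9 (0.16 ± 0.052, DESeq2 adjusted p = 0.0126) rose after Oxali. Both also rose after Cispl, with log2FCs of 0.24 ± 0.081 (DESeq2 adjusted p = 0.0122) and 0.15 ± 0.052 (DESeq2 adjusted p = 0.0139). With total-count scaling neither Cispl call held (DESeq2 adjusted p = 0.0527 and 0.113), and leaving out 1 library ended that of Dhx33 for each of the 6 libraries (highest 0.266, without Cispl replicate 2) and that of Dhx9 for Ctrl replicate 1 (0.227) and Cispl replicate 2 (0.299). After Cispl the interferon-inducible Oasl2 rose from 170.2 and 189 to 347 and 341 normalised counts (log2FC 0.94 ± 0.18, DESeq2 adjusted p = 3.27e-06). Its relative Oasl1 (1.29 ± 0.26, DESeq2 adjusted p = 1.12e-05) and Eif2ak2, the double-stranded RNA-activated kinase PKR (0.28 ± 0.092, DESeq2 adjusted p = 0.00933), also rose. Leaving out Oxali replicate 1 ended the call of Ifi204 (DESeq2 adjusted p = 0.0547), leaving out Ctrl replicate 1 or either Oxali replicate the Oxali calls of Dhx33 (0.151, 0.222 and 0.105) and Dhx9 (0.212, 0.158 and 0.132), and leaving out Ctrl replicate 1 or either Cispl replicate that of Eif2ak2 (0.232, 0.0688 and 0.197).

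Of 30 relay genes and regulators, 2 rose and 9 fell after Oxali, and 8 rose and 5 fell after Cispl (all genes: 10.7% and 9.50%, and 15.7% and 12.4%), with median log2FCs of -0.13 and 0.03. The list was written to include genes of vesicle traffic between the endoplasmic reticulum and the Golgi, the route that STING takes. The 3 with the smallest p after Oxali were among these, so their common route is not itself a result. Surf4, a cargo receptor of this route, fell from 12549 and 12148 to 8931 and 9131 normalised counts (log2FC -0.45 ± 0.037, SE, DESeq2 adjusted p = 2.87e-31). Sec24c, a coat protein of the outgoing vesicles, fell from 4958 and 4922 to 3886 and 3947 (log2FC -0.34 ± 0.052, DESeq2 adjusted p = 2.87e-09), and Yipf5 by a log2FC of -0.40 ± 0.073 (DESeq2 adjusted p = 8.04e-07). After Cispl, Surf4 stood at 11853 and 11773 (log2FC -0.064 ± 0.037, DESeq2 adjusted p = 0.188), and the drugs differed by -0.39 ± 0.037 (DESeq2 adjusted p = 4.60e-23). Sec24c and Yipf5 also fell after Cispl, with log2FCs of -0.18 ± 0.052 (DESeq2 adjusted p = 0.00330) and -0.28 ± 0.073 (DESeq2 adjusted p = 8.30e-04). Leaving out either Ctrl replicate or Cispl replicate 1 ended the Cispl call of Sec24c (DESeq2 adjusted p = 0.0592, 0.0513 and 0.208), and leaving out Ctrl replicate 2 or Cispl replicate 2 that of Yipf5 (0.0854 and 0.101).

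Ripk3, the necroptosis kinase that ZBP1 engages, moved like Tmem173 in direction. It had 1957 and 1986 normalised counts in Ctrl, 1698 and 1658 after Oxali and 2651 and 2671 after Cispl, with no overlap between groups. The log2FC was -0.23 ± 0.064 after Oxali (SE, DESeq2 adjusted p = 0.00204) and 0.43 ± 0.062 after Cispl (DESeq2 adjusted p = 9.80e-11), and Oxali minus Cispl was -0.66 ± 0.063 (DESeq2 adjusted p = 5.19e-24). The fall after Oxali lost its call without Ctrl replicate 2 or either Oxali replicate (DESeq2 adjusted p = 0.0791, 0.0740 and 0.143). Chuk, an IκB kinase subunit gene, rose after Cispl from 1492 and 1459 to 2078 and 2156 (log2FC 0.52 ± 0.068, DESeq2 adjusted p = 1.01e-12), and it also rose after Oxali, to 1852 and 1887 (0.34 ± 0.069, DESeq2 adjusted p = 1.02e-05). Trim25, the ubiquitin ligase known for acting on RIG-I, also rose after Cispl (0.38 ± 0.083, DESeq2 adjusted p = 5.06e-05).

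Of 14 genes of nucleic acid clearance and cyclic dinucleotide handling, 4 rose and 1 fell after Oxali and 3 rose and 2 fell after Cispl (all genes: 10.7% and 9.50%, and 15.7% and 12.4%), with median log2FCs of 0.11 and 0.14. Samhd1, which degrades deoxynucleotides, rose after both drugs, from 2677 and 2742 in Ctrl to 3420.1 and 3467 after Oxali and 3288 and 3169 after Cispl (log2FCs 0.35 ± 0.055 and 0.25 ± 0.055, SE, DESeq2 adjusted p = 9.39e-09 and 4.57e-05). Banf1, a chromatin-bound protein that competes with cGAS for DNA (0.29 ± 0.045, DESeq2 adjusted p = 2.27e-09), and Atad3a, a mitochondrial inner membrane ATPase (0.41 ± 0.081, DESeq2 adjusted p = 4.82e-06), rose after Oxali. After Cispl, Slc19a1, a folate carrier reported to import cyclic dinucleotides in human cells, rose (0.55 ± 0.11, DESeq2 adjusted p = 2.73e-06). Enpp1, the ectoenzyme that hydrolyses cGAMP, fell after Cispl from 543 and 505 to 379 and 347 normalised counts (-0.53 ± 0.13, DESeq2 adjusted p = 5.03e-04). Slc19a1 also rose after Oxali (0.36 ± 0.11, DESeq2 adjusted p = 0.00416), a call lost without either Ctrl replicate (0.0739 and 0.0610) or Oxali replicate 1 (0.231). The call of Enpp1 was lost without Ctrl replicate 1 (DESeq2 adjusted p = 0.0520) or Cispl replicate 2 (DESeq2 adjusted p = 0.0791).

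Of the 10 tested genes listed as early interferon targets, 4 rose after Oxali and 7 after Cispl (all genes: 10.7% and 15.7%), with median log2FCs of 0.69 and 1.23. Whether the sensors or interferon drove these rises was not tested. Ifna1, Ifna2, Ifna4, Ifna5, Ifnl2 and Ifnl3 had 0 counts in every library, which allows up to 0.125 to 0.141 CPM, and Ifnb1 had at most 2. The chemokine gene Cxcl10 had 101 and 79.8 normalised counts in Ctrl, 244 and 224 after Oxali and 958 and 908 after Cispl. Ccl5, another chemokine gene, had 115 and 119, 296 and 294 and 394 and 381 in the same order of groups. The log2FC of Ccl5 was 1.33 ± 0.18 after Oxali (SE, DESeq2 adjusted p = 4.30e-12) and 1.72 ± 0.18 after Cispl (DESeq2 adjusted p = 1.32e-20). Ifit1, an antiviral RNA-binding protein gene, rose by 0.86 ± 0.13 (DESeq2 adjusted p = 1.87e-09) and 1.22 ± 0.13 (DESeq2 adjusted p = 4.47e-19). The drugs differed in 4 of the 10, all lower after Oxali (all genes: 11.3%). Of these, Ifit1 lost its call without any 1 of the 4 drug-treated libraries, with log2 differences between -0.42 and -0.30. The summed normalised counts of the 10 targets were 1772 and 1893 in Ctrl, 2707 and 2601 after Oxali and 4275 and 3825 after Cispl.

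**Figure D4:**
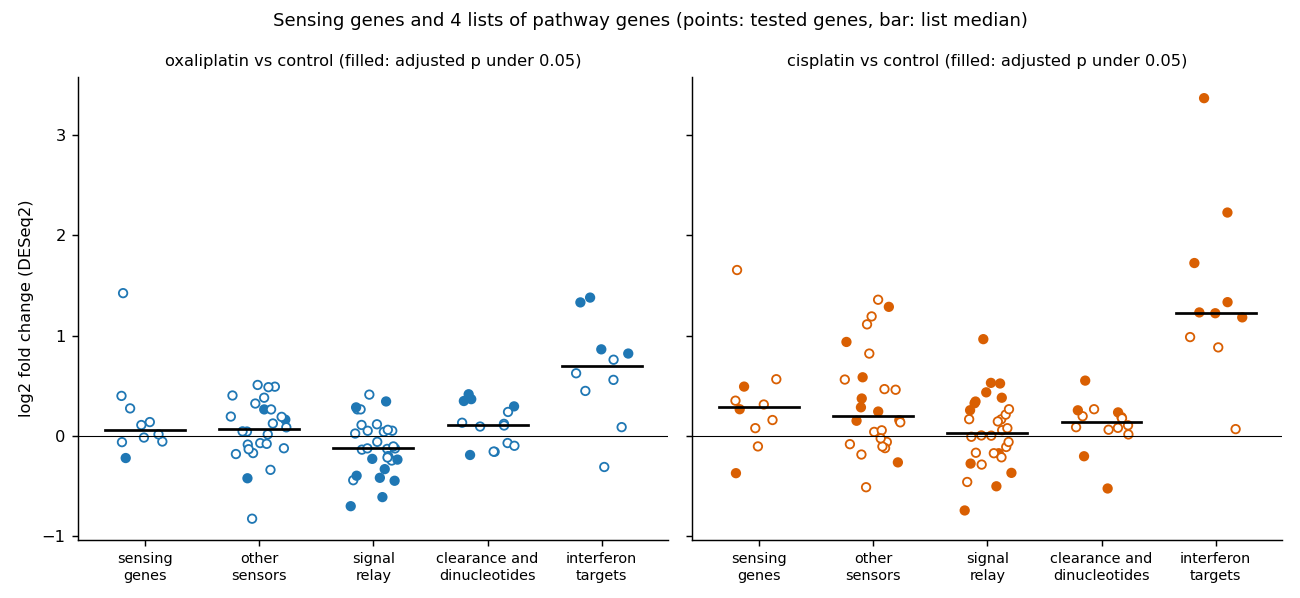
Log2 fold changes from DESeq2 (vertical axis) of each tested gene in the 10 sensing genes and the 4 pathway lists, against control, for oxaliplatin (left) and cisplatin (right). Points are filled where the adjusted p was under 0.05 and bars are list medians. The interferon targets have the highest medians, 0.69 and 1.23.

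Over the 6 libraries, the genes whose log2 level followed that of Ddx58 most closely were Plaa (Pearson's r = 0.993), Fubp3 (0.989), Tmem248 (0.988), Samd8 (0.985) and Prpf39 (0.985), out of 10730 genes with a mean of at least 100 normalised counts. These values describe 6 libraries in 3 groups of 2.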

How the data were processed

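Libraries of poly(A) RNA from TRAMP-C2 cells (stranded kit, 2 per group) were grouped and numbered from the labels. The authors deposited expected counts per gene, estimated by RSEM. The submitters' processing notes name STAR 2.5.3a, RSEM 1.3.0 and GRCm38.p6, whereas the study's methods describe another counter. The annotation release and the use of strand are not given in the sources used here. Per library, 7977 to 8235 values were not whole, and total counts were 21345312 to 24041767. The floor of 3 counts covers counting error only. Symbols and positions came from GENCODE M21 (GRCm38), which matched 54409 of 54446 identifiers, 53229 with the same version. The version differed for Tmem173.

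Expected counts were rounded. Genes reaching 10 counts in 2 or more libraries entered the fit (14956). As in the study's methods, DESeq2 (1.42.0, R 4.3.3) was used, with 1 model over the 6 libraries and group as its only term, two-sided Wald tests, unshrunken log2 fold changes, Benjamini-Hochberg adjustment per contrast over all genes tested, independent filtering at 0.1 and a threshold of 0.05. Intervals are 95% Wald intervals. Scripts were tested on simulated data. Lengths are the union of annotated exons. Promoters are from RefSeq (GRCm38.p6), with no window used for Tmem173, Dhx58 or Zbp1.

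The members, lists and motifs were chosen with earlier results of these data known. All members are named, and some cell type markers are not reported here. From each list, the 3 called genes with the smallest p in each drug contrast against control are named, and the 5 genes most like the member with the smallest p after cisplatin. Alternatives were edgeR (4.0.16), TMM and total-count scaling, other filters on low counts, independent filtering switched off, the replicate number as a block, fits restricted to the 4 libraries of a comparison, and each library left out, where a lone library is assumed to vary like the other groups.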

Additional observations from a re-analysis of the deposited data

How the results depend on the processing

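Tmem173 between the drugs kept its call in 14 of 14 alternatives, Tmem173 and Ddx58 after cisplatin each in 12, Tmem173 after oxaliplatin in 7 and Irf3 after cisplatin in 6. The labels name no batch behind the replicate numbers, and these were not taken to pair the samples, since the correlations of replicate differences were 0.07 for control and oxaliplatin, -0.05 for control and cisplatin and -0.19 for oxaliplatin and cisplatin. The replicate block gave 1958 genes called for oxaliplatin against control (3028 without it) and 1861 between the drugs (2977 without it), 0 sensing genes for oxaliplatin (1 without it), 19 pathway genes for cisplatin (34 without it) and 9 between the drugs (23 without it). edgeR called 4618 of the 14956 genes for oxaliplatin, 6112 for cisplatin and 4773 between the drugs, and 2, 7 and 3 sensing genes in the same order (1, 3 and 1 with DESeq2). The 7 include Zbp1, which passed the filter on low counts only through the drug-treated libraries. With at least 10 counts in every library, 2 sensing genes were called for oxaliplatin, and Zbp1 was not tested. The cause of these differences was not tested.

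With 1 library left out, the genes called numbered 1213 to 2159 for oxaliplatin, 2089 to 3021 for cisplatin (4203 with all libraries) and 1184 to 2453 between the drugs, the sensing genes called 0 to 2, 0 to 2 and 1, and the pathway genes called 10 to 18 (23 with all libraries), 15 to 20 and 4 to 18. The log2 fold changes that turned sign were all uncalled. For oxaliplatin they were Irf3 (-0.15 to 0.026), Dhx58 (-0.28 to 0.12), Trex1 (-0.075 to 0.11, and -0.00163 with total-count scaling) and Eif2ak2 (-0.047 to 0.14). For cisplatin it was Mavs (-0.00434 to 0.15). Between the drugs they were Cgas (-0.017 to 0.11), Mavs (-0.069 to 0.12), Zbp1 (-0.43 to 0.00262), Dhx9 (-0.045 to 0.057) and Dhx33 (-0.022 to 0.064). Total-count scaling moved the median of all genes by at most 0.05. Depth and 2 libraries per group limit what could be called, most of all for Zbp1.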
